A study of Homo sapiens with 24 samples.

Results

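Tumors taken 4 h after the last oral dose of IK-595 were compared with tumors of vehicle-treated mice, 8 of the 24 tumors sequenced, by the columns that carry those labels. The groups follow the sample titles. The time field of the IK-595 samples speaks of the last vehicle dose instead. The tumors grew in mice from AsPC-1 cells, an established human line of pancreatic ductal adenocarcinoma. All mice had 3 doses by mouth, every other day. The 4 mice of the 4 h group received 6 mg/kg of IK-595, which the study's title names as a MEK-RAF molecular glue. The 4 vehicle mice received 5% DMSO in PEG400. The vehicle tumors were collected 2 h after their last dose, so the groups differ in sampling time as well as in drug. Tumors taken 2 h after IK-595, at the same time after dosing as the vehicle tumors, are therefore set beside them. In every one of those 2 h tumors the 15 largest falls were already below every vehicle tumor, and 14 of the 15 largest rises were above, the exception being SLC26A3. These genes were chosen for lying apart from the same vehicle tumors at 4 h, which favors separation from those tumors at 2 h in advance. The share over all genes at 2 h was not taken, so the counts cover these genes alone. SPRY4, for example, had 9.31, 11.7, 8.62 and 14.7 CPM 2 h after IK-595, against 166, 150, 169 and 152 CPM in vehicle tumors. Other fallen genes named below, such as ATF4 and IRS2, differed between 2 h and 4 h by about as much as between vehicle and 4 h. For what differed between 2 h and 4 h, drug and sampling time cannot be told apart. Polyadenylated RNA of whole tumors was sequenced, and each tumor comes from its own animal. All tumors descend from 1 cell line, so the spread is between animals and not between patients.

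In the MAPK pathway, RAS activates RAF kinases, these activate MEK, and MEK activates ERK. Active ERK phosphorylates transcription factors of the ETS and AP-1 families and so raises a set of short-lived messages. Many of these encode brakes on the pathway itself, such as the DUSP phosphatases and the Sprouty and SPRED proteins. Because the brakes are made mainly while ERK is active, their messages are widely used as a readout of the pathway. In pancreatic cancer the pathway often runs at a high level.

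The 4 h tumors held 18.47, 10.52, 20.6 and 17.36 M counts (tumors 1 to 4), against 20.32, 20.58, 20.38 and 19.68 M in the vehicle tumors. Tumor 2 of the 4 h group was the shallowest. It also stood apart in host material: 16 fibroblast and pericyte marker genes summed to 2348, 34924, 1089 and 3626 CPM (counts scaled to the library total and between tumors by TMM) at 4 h, against 1332, 2585, 1599 and 1272 CPM in vehicle tumors. Tumor 4 of the 4 h group had 2919 CPM of adipocyte, muscle and red cell markers, where the 7 other tumors had 50.1 to 498 CPM. Of 12 lymphocyte markers none was expressed highly enough to be tested, and they summed to at most 0.912 CPM at 4 h and 2.14 CPM in vehicle tumors. The labelled epithelial identity was present throughout, with 12 of 12 marker genes expressed highly enough to be tested. Their sums were 10622 to 12982 CPM at 4 h, against 9918 to 13008 CPM in vehicle tumors. Overlapping sums do not mean that each gene was unchanged. By the threshold given below, 3 of the 12 genes rose at 4 h and none fell, with a median log2 fold change of 0.55. Over all genes tested 6.74% rose. Without 4 h tumor 2 the count was also 3 (median 0.45), and DESeq2 called 5 risen and limma-voom 4. Each result below was therefore also fitted without 4 h tumor 2. In bulk tumors, fewer cells of a type and less RNA per cell cannot be told apart.

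The words rose and fell are kept for genes with an adjusted p below 0.05. At that threshold, out of 18242 genes that could be tested, 1230 rose at 4 h (6.74%) and 1531 fell (8.39%), together 15.1%. Counts within the gene lists below are to be read against these shares. A change of at least 2-fold was seen in 652 of the risen and 537 of the fallen genes. The median log2 fold change over all genes tested was 0.026. Without 4 h tumor 2 the counts were 1259 and 1328, and 955 of the risen and 1177 of the fallen genes were called both ways. On leaving out each of the 8 tumors in turn, 1590 genes kept their call every time. Single genes below are given in CPM for tumors 1 to 4 of each group, then as log2 fold change (log2FC) ± standard error, 4 h over vehicle (n = 4 tumors each), with the adjusted p of edgeR. Genes named as risen or fallen kept their call on leaving out each tumor unless the text says otherwise.

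**Figure D1:**
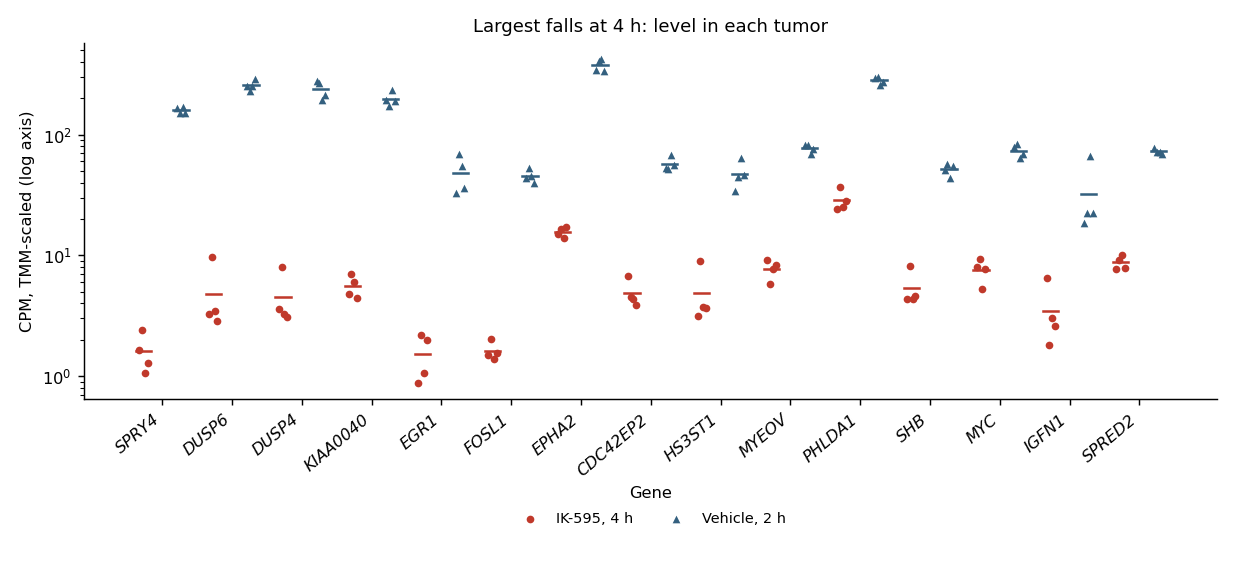
Level of the 15 genes with the largest falls in each tumor, in CPM on a log axis, with 4 h tumors as red circles and vehicle tumors as blue triangles; short lines are means of 4 tumors. For every gene the 4 circles lie below the 4 triangles, which the rule for choosing them required, and for DUSP6, DUSP4, HS3ST1 and SHB the circle of 4 h tumor 2 lies apart above the others.

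The 15 largest falls and the 15 largest rises were taken from called genes with a mean log2 CPM of at least 3 over the 8 tumors, no overlap between the groups and a call kept without 4 h tumor 2. Of all genes tested, 7.55% fell and 5.11% rose without overlap between the groups, and all 4 h tumors lay above all vehicle tumors, called or not, in 7.93% and below them in 11.5%. The falls were led by brakes and targets of ERK. SPRY4, a Sprouty protein that blocks signaling between receptor kinases and RAF, had 1.65, 2.39, 1.07 and 1.29 CPM at 4 h, against 166, 150, 169 and 152 CPM in vehicle tumors (log2FC -6.69 ± 0.39, adjusted p = 3.54e-10). DUSP6, the phosphatase that removes the activating phosphates of ERK in the cytoplasm, had 3.24, 9.76, 3.43 and 2.84 CPM at 4 h, against 251, 229, 254 and 288 CPM in vehicle tumors (log2FC -5.78 ± 0.38, adjusted p = 1.09e-09). In 4 h tumor 2 both levels were the highest of the 4 h group, and for DUSP6 that tumor was nearly 3 times the next, at 9.76 against 3.43 CPM. DUSP4, the nuclear relative of DUSP6, had 3.6, 8.04, 3.24 and 3.11 CPM at 4 h, against 279, 267, 192 and 211 CPM in vehicle tumors (log2FC -5.77 ± 0.37, adjusted p = 7.66e-10), again with tumor 2 the highest at 4 h. Leaving that tumor out made these falls larger, at -6.88 for SPRY4, -6.31 for DUSP6 and -6.14 for DUSP4 on the log2 scale. Whether the host RNA of that tumor had a part in its higher values was not tested.

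Transcription factors and signaling proteins made up most of the rest of these falls. EGR1, a zinc finger factor and classic immediate early gene, had 0.874, 2.2, 1.07 and 1.99 CPM at 4 h, against 32.7, 68.8, 54.6 and 35.9 CPM in vehicle tumors (log2FC -5.01 ± 0.55, adjusted p = 1.96e-06). FOSL1, the AP-1 subunit FRA1 that ERK both induces and stabilizes, had 1.49, 2.01, 1.39 and 1.56 CPM at 4 h, against 43.5, 52.9, 45.2 and 40 CPM in vehicle tumors (log2FC -4.83 ± 0.52, adjusted p = 1.26e-06). MYC, the growth factor-responsive transcription factor, had 7.97, 9.28, 5.28 and 7.67 CPM at 4 h, against 78.3, 83.2, 63.9 and 69.4 CPM in vehicle tumors (log2FC -3.30 ± 0.27, adjusted p = 1.66e-08). The highest 4 h value was 2.2 CPM for EGR1, 2.01 CPM for FOSL1 and 9.28 CPM for MYC, all in tumor 2, and each was far below the lowest vehicle tumor. EPHA2, a receptor tyrosine kinase for ephrins, had 14.9, 16.5, 13.8 and 17 CPM at 4 h, against 344, 405, 423 and 335 CPM in vehicle tumors (log2FC -4.60 ± 0.30, adjusted p = 7.66e-10). PHLDA1, a pleckstrin homology-like protein of the immediate early class, had 24.1, 37, 24.9 and 28.4 CPM at 4 h, against 294, 300, 256 and 273 CPM in vehicle tumors (log2FC -3.30 ± 0.23, adjusted p = 1.52e-09). SPRED2, one of the SPRED brakes on the pathway, had 7.76, 9.19, 10.1 and 7.89 CPM at 4 h, against 77.8, 72.1, 71.2 and 68.8 CPM in vehicle tumors (log2FC -3.05 ± 0.22, adjusted p = 1.52e-09). The 4 h tumors lay within 13.8 to 17 CPM for EPHA2, and none of the 3 genes overlapped between the groups.

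Less familiar genes were also among the largest falls. KIAA0040, a gene of unknown function, had 4.78, 6.99, 6.02 and 4.45 CPM at 4 h, against 194, 173, 232 and 188 CPM in vehicle tumors (log2FC -5.15 ± 0.33, adjusted p = 7.66e-10). CDC42EP2, an effector of the small GTPase CDC42 in actin organization, had 6.68, 4.5, 4.35 and 3.86 CPM at 4 h, against 52.7, 52.1, 67.7 and 55.6 CPM in vehicle tumors (log2FC -3.55 ± 0.25, adjusted p = 1.52e-09). SHB, an SH2-domain adaptor of receptor kinases, had 4.32, 8.13, 4.35 and 4.56 CPM at 4 h, against 51.2, 57.3, 43.9 and 54.4 CPM in vehicle tumors (log2FC -3.30 ± 0.20, adjusted p = 3.54e-10). Its 3 lower 4 h tumors lay within 4.32 to 4.56 CPM and tumor 2 lay at 8.13 CPM. HS3ST1, a heparan sulfate sulfotransferase, had 3.14, 8.9, 3.75 and 3.65 CPM at 4 h, against 34.4, 44.3, 63.7 and 45.9 CPM in vehicle tumors (log2FC -3.31 ± 0.29, adjusted p = 3.24e-08). MYEOV, a gene of the chromosome 11 region that holds CCND1, had 9.15, 5.84, 7.64 and 8.37 CPM at 4 h, against 81.7, 81.7, 69.5 and 76.6 CPM in vehicle tumors (log2FC -3.31 ± 0.26, adjusted p = 8.86e-09). IGFN1, first described in muscle, had 6.48, 1.82, 3.01 and 2.58 CPM at 4 h, against 18.5, 22.6, 66.4 and 22.4 CPM in vehicle tumors (log2FC -3.21 ± 0.68, adjusted p = 0.00241), and its vehicle level was carried in part by tumor 3: without it the log2 fold change was -2.58.

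Promoter sequences of 3 of these fallen genes, and of the nucleolar gene NOP56 described further on, are shown because they hold matches to binding motifs of factors that ERK signaling acts on. They are the 250 bases before the RefSeq start of each gene in GRCh38.p14, 5′ to 3′ on the strand of the gene, with the matched letters in capitals. Matches were searched on both strands for the ETS core CCGGAA, the AP-1 motif TGANTCA, the cyclic AMP response element TGACGTCA, the E-box CACGTG and the CArG box of serum response factor.
EGR1 (chr5:138465229-138465478, plus strand, CArG boxes from -105 and -83): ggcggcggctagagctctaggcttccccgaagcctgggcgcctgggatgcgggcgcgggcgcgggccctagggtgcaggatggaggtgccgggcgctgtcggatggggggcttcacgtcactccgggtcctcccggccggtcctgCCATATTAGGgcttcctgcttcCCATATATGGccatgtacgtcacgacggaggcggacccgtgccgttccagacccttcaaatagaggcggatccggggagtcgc
EPHA2 (chr1:16156070-16156319, minus strand, response element): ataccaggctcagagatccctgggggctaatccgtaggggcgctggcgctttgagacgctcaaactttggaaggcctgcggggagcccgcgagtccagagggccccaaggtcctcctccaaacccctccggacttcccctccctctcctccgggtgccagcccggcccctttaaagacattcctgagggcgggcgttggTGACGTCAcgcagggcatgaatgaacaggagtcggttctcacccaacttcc
PHLDA1 (chr12:76031777-76032026, minus strand, ETS core read on the opposite strand): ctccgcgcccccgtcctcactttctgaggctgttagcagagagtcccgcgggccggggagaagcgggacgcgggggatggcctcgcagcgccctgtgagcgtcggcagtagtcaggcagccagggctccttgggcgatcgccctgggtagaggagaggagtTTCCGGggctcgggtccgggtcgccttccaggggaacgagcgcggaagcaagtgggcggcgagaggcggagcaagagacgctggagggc
NOP56 (chr20:2652382-2652631, plus strand, ETS core): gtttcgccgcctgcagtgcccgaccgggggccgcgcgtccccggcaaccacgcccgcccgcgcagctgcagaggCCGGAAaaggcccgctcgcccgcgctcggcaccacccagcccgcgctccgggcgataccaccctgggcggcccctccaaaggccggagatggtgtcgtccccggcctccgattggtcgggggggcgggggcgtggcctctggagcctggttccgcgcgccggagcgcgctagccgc

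Of the 15 largest falls, 11 had a promoter in the RefSeq table: 2 held the ETS core (KIAA0040 and PHLDA1), 1 the response element (EPHA2), 1 the CArG box (EGR1) and 0 the AP-1 motif or the E-box. Of the 15 largest rises 9 had a promoter, and 0 held any of the 5 motifs. Over the 12134 promoters of tested genes, 23.5% held the ETS core, 4.25% the AP-1 motif, 2.69% the response element, 8.48% the E-box and 1.03% the CArG box. A match describes the letters of this window and is not a measured binding site.

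The 10 genes often averaged as a MAPK output score (the phosphatases DUSP4 and DUSP6, the inhibitors SPRY2 and SPRY4, the ETS factors ETV4 and ETV5, the receptors EPHA2 and EPHA4, and CCND1 and PHLDA1) gave a mean log2 CPM of 2.82, 3.57, 2.63 and 2.8 at 4 h, against 6.55, 6.48, 6.56 and 6.51 in vehicle tumors. The vehicle tumors were close together and 4 h tumor 2 was the highest of its group. Of the 10 genes 9 fell. SPRY2 had 10.5, 21.2, 12.3 and 10.3 CPM at 4 h, against 48.7, 53, 51.4 and 49.6 CPM in vehicle tumors (log2FC -1.91 ± 0.21, adjusted p = 8.95e-07), with tumor 2 at about 2 times the other 4 h tumors. CCND1, the G1 cyclin D1, had 67.7, 68.1, 46.1 and 68.7 CPM at 4 h, against 292, 280, 234 and 255 CPM in vehicle tumors (log2FC -2.08 ± 0.24, adjusted p = 1.88e-06). ETV5, an ETS factor of the PEA3 group, had 2.26, 1.15, 1.85 and 1.56 CPM at 4 h, against 29.7, 26.9, 24.9 and 28.1 CPM in vehicle tumors (log2FC -3.98 ± 0.34, adjusted p = 2.07e-08). Its relative ETV4 had 17.2, 15.4, 15.8 and 18.2 CPM at 4 h, against 51.8, 46.5, 36.1 and 43.3 CPM in vehicle tumors (log2FC -1.41 ± 0.18, adjusted p = 7.58e-06). For both factors 4 h tumor 2 was the lowest of its group. EPHA4 was the exception and did not pass, with 1.23, 15.5, 0.834 and 1.77 CPM at 4 h, against 1.86, 1.4, 5.57 and 2.91 CPM in vehicle tumors (log2FC 0.69 ± 0.70, adjusted p = 0.559). Its 4 h level rested on tumor 2, and without that tumor the log2 fold change was -1.17.

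Within the DUSP family the direction depended on the member. Of 13 tested genes 5 fell and 2 rose, with a median log2 fold change of -0.30. Beside DUSP4 and DUSP6, DUSP7 had 19.5, 39.7, 15.7 and 21.4 CPM at 4 h, against 108, 111, 120 and 101 CPM in vehicle tumors (log2FC -2.20 ± 0.24, adjusted p = 9.05e-07). DUSP5, a nuclear ERK phosphatase, had 0.308, 1.44, 0.602 and 1.07 CPM at 4 h, against 3.47, 4.89, 13.2 and 5.23 CPM in vehicle tumors (log2FC -3.0 ± 0.46, adjusted p = 7.13e-05), or -2.41 without vehicle tumor 3. DUSP8 and DUSP16, which act mainly on the stress kinases JNK and p38, lay the other way. DUSP8 had 10.1, 9.86, 8.75 and 12.2 CPM at 4 h, against 3.32, 2.52, 3.78 and 5.04 CPM in vehicle tumors (log2FC 1.48 ± 0.23, adjusted p = 6.48e-05). DUSP16 had 36.6, 31.4, 43.2 and 55.3 CPM at 4 h, against 25.7, 19.2, 27.4 and 22.3 CPM in vehicle tumors (log2FC 0.82 ± 0.20, adjusted p = 0.00762). Of the 7 tested Sprouty and SPRED genes 6 fell and none rose by edgeR (median -1.91), although 7 were under an unadjusted p of 0.05 and DESeq2 and limma-voom each called 1 rise. Without vehicle tumor 1 edgeR also called 1 rise. SPRY1 had 4.78, 4.79, 5.93 and 4.88 CPM at 4 h, against 24, 20.1, 15.6 and 19.4 CPM in vehicle tumors (log2FC -1.95 ± 0.17, adjusted p = 3.96e-08). SPRED1 had 4.27, 26.4, 4.72 and 3.76 CPM at 4 h, against 32.3, 32.9, 34.8 and 32 CPM in vehicle tumors (log2FC -1.80 ± 0.46, adjusted p = 0.00978), so 4 h tumor 2 was near the vehicle level while the other 3 were far below it. Without that tumor the fall was -2.93, and with only the 8 tumors fitted the call was lost (adjusted p = 0.14).

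Several families of transcription factors held falls. Of 12 tested AP-1 genes 7 fell and none rose (median -1.18, 9 fallen without 4 h tumor 2, 1 risen without vehicle tumor 3), with 10 genes under an unadjusted p of 0.05. The small MAF factor MAFF had 14.1, 16.3, 19.7 and 13.9 CPM at 4 h, against 44.8, 68, 113 and 79.5 CPM in vehicle tumors (log2FC -2.25 ± 0.28, adjusted p = 5.16e-06). MAFG had 21, 26.8, 20.5 and 21.5 CPM at 4 h, against 52, 51.5, 55.5 and 51.9 CPM in vehicle tumors (log2FC -1.23 ± 0.15, adjusted p = 3.62e-06). JUNB had 65.5, 120, 77.5 and 67.5 CPM at 4 h, against 156, 239, 227 and 195 CPM in vehicle tumors (log2FC -1.31 ± 0.19, adjusted p = 2.85e-05). JUNB was highest at 4 h in tumor 2, and no 4 h tumor of these 3 genes reached the lowest vehicle tumor. Of 16 tested genes of the EGR, NR4A and IER list 8 fell and none rose (median -0.94). IER3, a stress-inducible survival gene, had 28.8, 25.6, 22.8 and 20.2 CPM at 4 h, against 143, 181, 133 and 152 CPM in vehicle tumors (log2FC -2.65 ± 0.23, adjusted p = 4.38e-08). IER5 had 12, 17.7, 11.6 and 12.9 CPM at 4 h, against 34.6, 42.5, 48.1 and 44.3 CPM in vehicle tumors (log2FC -1.65 ± 0.15, adjusted p = 7.99e-08). IER2 had 61.5, 65.5, 63.5 and 62 CPM at 4 h, against 122, 158, 163 and 145 CPM in vehicle tumors (log2FC -1.22 ± 0.16, adjusted p = 8.14e-06). The IER2 values at 4 h spanned only 61.5 to 65.5 CPM. TRIB1, a pseudokinase scaffold that binds MEK, fell by 1.44 on the log2 scale.

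ETS factors split. Of 19 tested genes 6 fell and 2 rose (median -0.30), and the rises were 1 without 4 h tumor 3 or 4 or without vehicle tumor 1, 2 or 3. The PEA3 group fell, with ETV1 at 8.79, 9, 10 and 7.19 CPM at 4 h, against 61.3, 49.5, 67.4 and 64.2 CPM in vehicle tumors (log2FC -2.79 ± 0.27, adjusted p = 1.90e-07) beside ETV4 and ETV5. ETV3, an ETS repressor, fell by 0.98 on the log2 scale. ELF3, an ETS factor of differentiated epithelium, rose, with 769, 683, 828 and 639 CPM at 4 h, against 290, 320, 436 and 404 CPM in vehicle tumors (log2FC 1.01 ± 0.26, adjusted p = 0.00871). All 4 ELF3 values at 4 h were above the highest vehicle tumor.

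**Figure D2:**
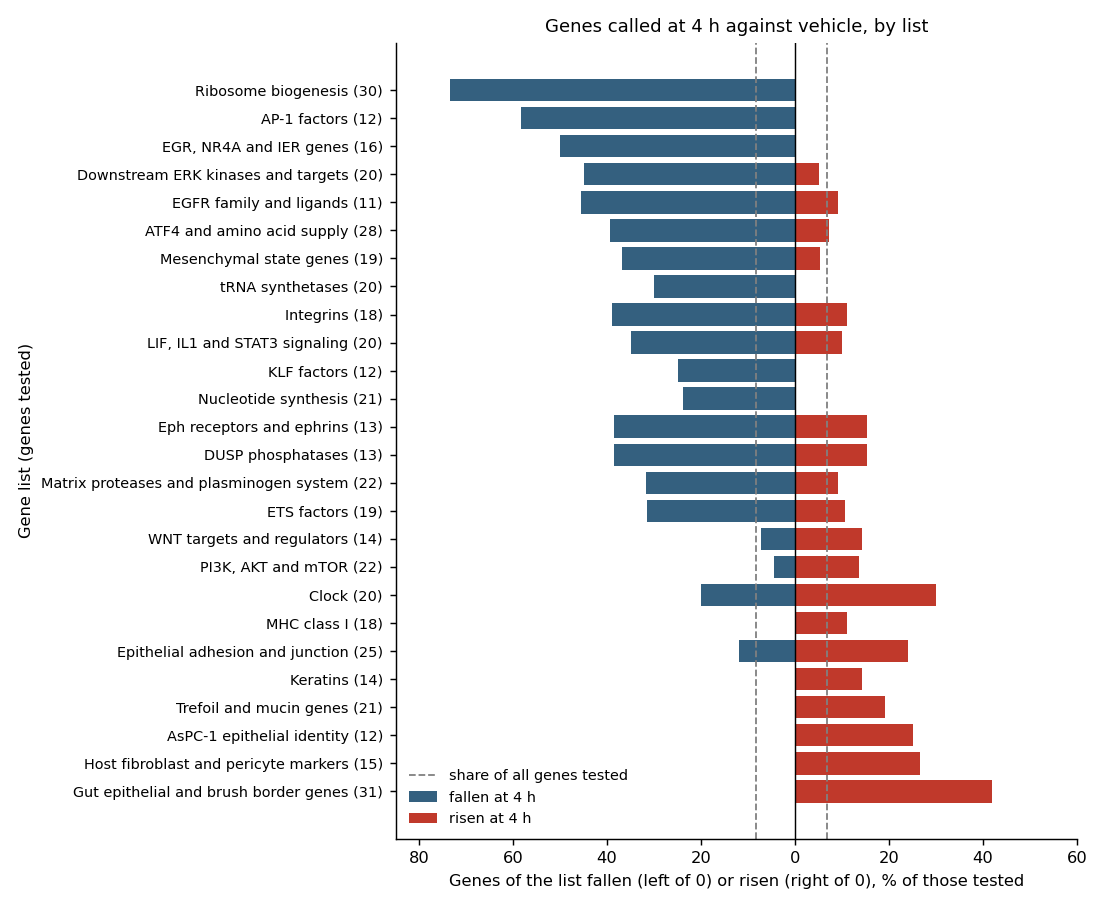
Share of the tested genes of each list that fell (blue, left of 0) or rose (red, right of 0) at 4 h, in percent, for the 16 lists with the largest excess of falls and the 10 with the largest excess of rises among lists of at least 10 tested genes, leaving out the MAPK output score genes; dashed lines are the shares over all genes, 8.39% and 6.74%. Ribosome biogenesis has the longest blue bar, with 22 of 30 genes, and gut epithelial genes the longest red bar, with 13 of 31. The lists were chosen with earlier results of these data known, so the bars are descriptions. The red bar of host fibroblast and pericyte markers (4 of 15 genes) was 0 without 4 h tumor 2 and 0 by limma-voom.

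Most messages of the kinase chain itself did not pass. Of 28 tested genes of the RAS, RAF, MEK and ERK list 3 fell and 2 rose (median -0.06, 1 risen without 4 h tumor 2 or without vehicle tumor 3 or 4). BRAF had 30.8, 41.6, 42.8 and 30.7 CPM at 4 h, against 33.5, 33.4, 50.9 and 35.7 CPM in vehicle tumors (log2FC -0.07 ± 0.15, adjusted p = 0.788). Among the MEK genes MAP2K1 gave -0.15 ± 0.18 and MAP2K2 -0.12 ± 0.12, and the ERK gene MAPK3 gave 0.25 ± 0.17, none with an adjusted p under 0.316. Among the fallen members were negative regulators of RAS. RASA3, a GTPase-activating protein, had 33.3, 43.5, 42.6 and 24.6 CPM at 4 h, against 78.3, 79.7, 129 and 87.6 CPM in vehicle tumors (log2FC -1.38 ± 0.20, adjusted p = 2.85e-05), and RASA2 fell by 0.82. The GTPase-activating protein DAB2IP rose, with 108, 111, 124 and 118 CPM at 4 h, against 79.1, 81.7, 73.5 and 77.3 CPM in vehicle tumors (log2FC 0.56 ± 0.10, adjusted p = 3.17e-04).

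Among 20 tested kinases and targets downstream of ERK 9 fell and 1 rose (median -0.39). SLC20A1, a phosphate transporter, had 206, 268, 190 and 156 CPM at 4 h, against 690, 645, 700 and 620 CPM in vehicle tumors (log2FC -1.69 ± 0.20, adjusted p = 3.24e-06). PHLDA2, an imprinted growth regulator, fell by 1.88 and PIM1, a survival kinase, fell by 1.92 on the log2 scale. In a separate list, of 28 genes tested for cholesterol and fatty acid synthesis 1 fell and none rose by edgeR (3 under an unadjusted p of 0.05, median -0.22, and 1 risen by DESeq2).

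Receptors and ligands act at the top of the pathway. Of 11 tested genes of the EGFR family and its ligands 5 fell and 1 rose (median -0.20). The ligand HBEGF had 2.06, 3.25, 1.44 and 1.07 CPM at 4 h, against 10.2, 14.4, 13.3 and 12 CPM in vehicle tumors (log2FC -2.71 ± 0.32, adjusted p = 2.35e-06). AREG, encoding amphiregulin, had 9.51, 10.1, 8.57 and 11.1 CPM at 4 h, against 38.6, 49.4, 33.7 and 31.3 CPM in vehicle tumors (log2FC -1.96 ± 0.24, adjusted p = 4.27e-06). EREG, encoding epiregulin, had 10.3, 6.99, 9.31 and 12 CPM at 4 h, against 46.7, 39.9, 21.1 and 25.2 CPM in vehicle tumors (log2FC -1.78 ± 0.29, adjusted p = 1.21e-04). All 4 h tumors lay below all vehicle tumors in the 3 ligand genes. ERRFI1, a feedback inhibitor that binds the EGFR kinase, had 34.2, 61.6, 46.1 and 28.7 CPM at 4 h, against 195, 293, 463 and 343 CPM in vehicle tumors (log2FC -2.93 ± 0.34, adjusted p = 2.72e-06). EGFR itself had 242, 220, 391 and 243 CPM at 4 h, against 486, 483, 610 and 443 CPM in vehicle tumors (log2FC -0.89 ± 0.21, adjusted p = 0.00498), with 4 h tumor 3 nearest the vehicle level. The single rise depended on the tumors used: it was 2 without 4 h tumor 2 and 0 without 4 h tumor 4 or vehicle tumor 1 or 2.

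Of 24 other receptor kinases and adaptors 5 fell and 2 rose (median 0.04, 4 risen without 4 h tumor 3 and 1 without vehicle tumor 2 or 3). The insulin receptor substrates fell, IRS1 with 10.2, 13.8, 16.5 and 13.5 CPM at 4 h, against 73.8, 58.7, 48 and 63.3 CPM in vehicle tumors (log2FC -2.17 ± 0.25, adjusted p = 1.57e-06) and IRS2 with -1.51 ± 0.27 on the log2 scale. For IRS2 the log2 fold change from 2 h to 4 h after IK-595 was about as large, at -1.50. MET, the receptor of hepatocyte growth factor, had 263, 252, 331 and 342 CPM at 4 h, against 671, 613, 652 and 578 CPM in vehicle tumors (log2FC -1.08 ± 0.23, adjusted p = 0.00173). AXL fell by 0.95 and its relative MERTK rose by 1.04 ± 0.24, so these 2 receptors of GAS6 lay in opposite directions. Of 13 Eph receptors and ephrins 5 fell and 2 rose (median 0.03, 1 risen without 4 h tumor 2 or without vehicle tumor 1, 3 or 4). Beside EPHA2 the ephrin EFNB2 fell by 1.12 and the receptor EPHB4 by 0.78, and EPHA1 rose, with 5.4, 5.36, 4.4 and 5.53 CPM at 4 h, against 1.12, 2.18, 1.79 and 1.53 CPM in vehicle tumors (log2FC 1.64 ± 0.33, adjusted p = 0.00125).

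Genes of the nucleolus fell. The ribosome biogenesis list, which holds factors that make and process ribosomal RNA, had 22 of 30 tested genes fallen and none risen (27 under an unadjusted p of 0.05, median -0.73), and 22 fell without 4 h tumor 2. No log2 fold change of its 30 genes was above -0.24. WDR43, of the small subunit processome, had 22.1, 35.5, 25.4 and 23.4 CPM at 4 h, against 82.1, 68.4, 55.7 and 70.9 CPM in vehicle tumors (log2FC -1.38 ± 0.17, adjusted p = 5.00e-06). DDX21, an RNA helicase of the nucleolus, had 63.1, 94.3, 75.3 and 72.2 CPM at 4 h, against 222, 230, 174 and 181 CPM in vehicle tumors (log2FC -1.41 ± 0.20, adjusted p = 2.32e-05). RRS1, which assembles the 5S particle, had 5.3, 8.33, 5.97 and 5.9 CPM at 4 h, against 28.2, 29.1, 13.3 and 16.5 CPM in vehicle tumors (log2FC -1.78 ± 0.26, adjusted p = 3.61e-05). In WDR43, DDX21 and RRS1 the 4 h tumor nearest the vehicle level was tumor 2. GNL3, encoding nucleostemin, had 28.7, 26.3, 30.1 and 28.7 CPM at 4 h, against 64.7, 61.9, 55.3 and 56.7 CPM in vehicle tumors (log2FC -1.07 ± 0.13, adjusted p = 5.09e-06). NOP56, a core protein of the C/D box particle, had 75.6, 79.7, 62.3 and 73.7 CPM at 4 h, against 154, 131, 113 and 130 CPM in vehicle tumors (log2FC -0.86 ± 0.17, adjusted p = 0.00128). NCL, encoding nucleolin, did not pass, with 476, 539, 430 and 512 CPM at 4 h, against 788, 675, 493 and 650 CPM in vehicle tumors (log2FC -0.41 ± 0.15, adjusted p = 0.0613; 0.0441 by DESeq2, 0.031 without vehicle tumor 3). Of the 22 fallen genes 18 had a RefSeq promoter, and 11 of these (61.1%) held the ETS core, against 23.5% of all promoters, with 1 E-box (UTP20). The fallen genes were chosen by their change, and the members of the list that did not fall were not counted apart. The share is therefore a description and was not tested for a link with the fall.

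In the MYC network itself, of 12 tested genes 3 fell and 1 rose (2 without vehicle tumor 3; median 0.00). Beside MYC, its antagonist MNT fell by 0.58, and MLXIPL, the glucose-sensing factor ChREBP, had 55.1, 25.3, 42.8 and 28.2 CPM at 4 h, against 6.93, 8.04, 7.12 and 11.6 CPM in vehicle tumors (log2FC 2.17 ± 0.44, adjusted p = 0.00166). From 2 h to 4 h after IK-595 the log2 fold change of MNT was -0.79. Of 21 genes of nucleotide synthesis 5 fell and none rose (8 under an unadjusted p of 0.05, median -0.38; 3 fallen without 4 h tumor 1 or vehicle tumor 2 or 4 and 2 without vehicle tumor 1). MTHFD2, the mitochondrial folate enzyme, had 27.4, 29.4, 29.1 and 28.6 CPM at 4 h, against 67.5, 67.2, 59.3 and 57 CPM in vehicle tumors (log2FC -1.13 ± 0.17, adjusted p = 4.36e-05), and PPAT, the first enzyme of purine synthesis, fell by 0.70.

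Among cell cycle lists, those of DNA replication and mitosis showed few calls, where 8.39% of all genes tested fell and 6.74% rose. Of 20 G1 cyclins and CDK inhibitors 4 fell and 1 rose (2 risen without 4 h tumor 1 or vehicle tumor 3; median -0.06). CDKN1A, encoding the inhibitor p21, fell together with CCND1, with 34.5, 39.2, 28.6 and 26.9 CPM at 4 h, against 114, 136, 183 and 113 CPM in vehicle tumors (log2FC -2.08 ± 0.26, adjusted p = 5.19e-06). CDKN2D fell by 1.35 and the transcription factor E2F3 by 0.80, and the inhibitor CDKN1C had 1.85, 3.92, 1.9 and 2.04 CPM at 4 h, against 0.684, 0.871, 1.05 and 0.444 CPM in vehicle tumors (log2FC 1.65 ± 0.37, adjusted p = 0.00323). Of 28 DNA replication genes none was called by edgeR, DESeq2 or limma-voom (1 under an unadjusted p of 0.05, median -0.07). MCM7, a subunit of the replicative helicase, had 134, 105, 110 and 148 CPM at 4 h, against 207, 180, 126 and 188 CPM in vehicle tumors (log2FC -0.49 ± 0.20, adjusted p = 0.0937). Of 25 mitosis genes 1 fell, the ubiquitin carrier gene UBE2C, and 11 were under an unadjusted p of 0.05 (median -0.69; 2 fallen by DESeq2, 2 without vehicle tumor 3 and 5 with only the groups compared). The log2 fold changes of the 25 ran between -1.37 and -0.39. The call of UBE2C was lost without 4 h tumor 1, 2 or 3 or vehicle tumor 1, 2 or 4. MKI67, the proliferation antigen, had 155, 101, 147 and 200 CPM at 4 h, against 326, 283, 161 and 253 CPM in vehicle tumors (log2FC -0.77 ± 0.39, adjusted p = 0.197), with 3 of 4 tumors at 4 h below every vehicle tumor.

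Among regulators of apoptosis, BCL2 family genes moved in both directions. Of 15 tested genes 4 fell and 3 rose (median -0.21). The survival gene BCL2L1, encoding BCL-XL, had 53.5, 63.8, 62.1 and 61.1 CPM at 4 h, against 271, 281, 274 and 253 CPM in vehicle tumors (log2FC -2.17 ± 0.17, adjusted p = 9.93e-09). MCL1, its short-lived relative, had 177, 234, 271 and 211 CPM at 4 h, against 360, 402, 401 and 351 CPM in vehicle tumors (log2FC -0.76 ± 0.17, adjusted p = 0.00288). Both were lower in every 4 h tumor than in any vehicle tumor. The killer genes differed among themselves. BMF had 15, 11.3, 14.7 and 14.6 CPM at 4 h, against 0.977, 1.16, 3.19 and 2.17 CPM in vehicle tumors (log2FC 2.89 ± 0.35, adjusted p = 3.61e-06). BCL2L11, encoding BIM, had 88, 68.1, 104 and 89.6 CPM at 4 h, against 45.9, 36.6, 40.7 and 46 CPM in vehicle tumors (log2FC 1.05 ± 0.18, adjusted p = 2.72e-04). BBC3, encoding PUMA, rose by 0.73 ± 0.18. PMAIP1, encoding NOXA, fell, with 7.3, 7.37, 12.1 and 10 CPM at 4 h, against 30.7, 26.7, 33.1 and 33.5 CPM in vehicle tumors (log2FC -1.75 ± 0.24, adjusted p = 1.88e-05), as did the effector gene BAK1 by 0.74.

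Genes of amino acid supply and stress were called in both directions. Of 28 tested genes of the ATF4 list 11 fell and 2 rose (median -0.46). ATF4, the factor that turns on this program when translation is stressed, had 133, 179, 139 and 121 CPM at 4 h, against 210, 216, 240 and 228 CPM in vehicle tumors (log2FC -0.64 ± 0.13, adjusted p = 9.13e-04). Its log2 fold change from 2 h to 4 h after IK-595 was about as large, at -0.65. SLC7A11, the cystine importer, had 9, 8.42, 11.5 and 11.7 CPM at 4 h, against 74.8, 72.6, 107 and 81 CPM in vehicle tumors (log2FC -3.04 ± 0.25, adjusted p = 1.35e-08). The pseudokinase TRIB3 had 7.35, 5.74, 9.17 and 4.18 CPM at 4 h, against 32.9, 35.5, 40.4 and 38.6 CPM in vehicle tumors (log2FC -2.47 ± 0.30, adjusted p = 3.18e-06). SLC38A2, a glutamine transporter, fell by 1.19 and CHAC1, which degrades glutathione, by 1.65. Against these, the glycine transporter SLC6A9 had 7.92, 9, 6.67 and 8.32 CPM at 4 h, against 2.69, 4.12, 2.39 and 2.02 CPM in vehicle tumors (log2FC 1.5 ± 0.28, adjusted p = 6.46e-04) and CTH, which makes cysteine, rose by 0.94 ± 0.22. Of 20 tRNA synthetases 6 fell and none rose (9 under an unadjusted p of 0.05, median -0.28). The count was 1 with only the groups compared or without vehicle tumor 1, 2 without 4 h tumor 1 or 3 or vehicle tumor 2, and 3 without 4 h tumor 2 or vehicle tumor 4.

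Of 24 glycolysis genes 4 fell and none rose (10 under an unadjusted p of 0.05, median -0.40; 2 fallen without 4 h tumor 1 or vehicle tumor 2, 3 or 4, and 7 by DESeq2). SLC2A1, the glucose transporter GLUT1, had 239, 369, 458 and 187 CPM at 4 h, against 682, 904, 1310 and 874 CPM in vehicle tumors (log2FC -1.59 ± 0.31, adjusted p = 9.27e-04). The lactate exporter SLC16A3 had 88.2, 84.7, 125 and 80.3 CPM at 4 h, against 132, 159, 233 and 162 CPM in vehicle tumors (log2FC -0.86 ± 0.21, adjusted p = 0.0059). From 2 h to 4 h after IK-595 its log2 fold change was -0.98. GAPDH had 2345, 1969, 2405 and 2156 CPM at 4 h, against 2648, 2749, 3070 and 2874 CPM in vehicle tumors (log2FC -0.35 ± 0.13, adjusted p = 0.0711), so its groups did not overlap but it did not pass. Of 22 antioxidant genes of the NRF2 list 5 rose and 4 fell (median 0.13; 3 risen without 4 h tumor 4 or vehicle tumor 3, 2 fallen without 4 h tumor 1 or 3 or vehicle tumor 2 or 3). HMOX1, heme oxygenase and also one of the 15 largest rises, had 36.5, 43.8, 35.5 and 34.6 CPM at 4 h, against 7.52, 7.07, 8.66 and 7.16 CPM in vehicle tumors (log2FC 2.30 ± 0.24, adjusted p = 4.35e-07). The factor gene NFE2L2 had 61.9, 58.3, 71.6 and 67.9 CPM at 4 h, against 100, 99.4, 128 and 104 CPM in vehicle tumors (log2FC -0.73 ± 0.14, adjusted p = 6.47e-04). Of 29 lysosome genes 3 rose and 1 fell (0 fallen without 4 h tumor 1, 2 or 3 or vehicle tumor 2 or 3; 5 risen with only the groups compared and 2 fallen by DESeq2; median 0.07), with the protease CTSD at 372, 418, 481 and 389 CPM at 4 h, against 184, 222, 219 and 193 CPM in vehicle tumors (log2FC 1.02 ± 0.24, adjusted p = 0.00512).

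**Figure D3:**
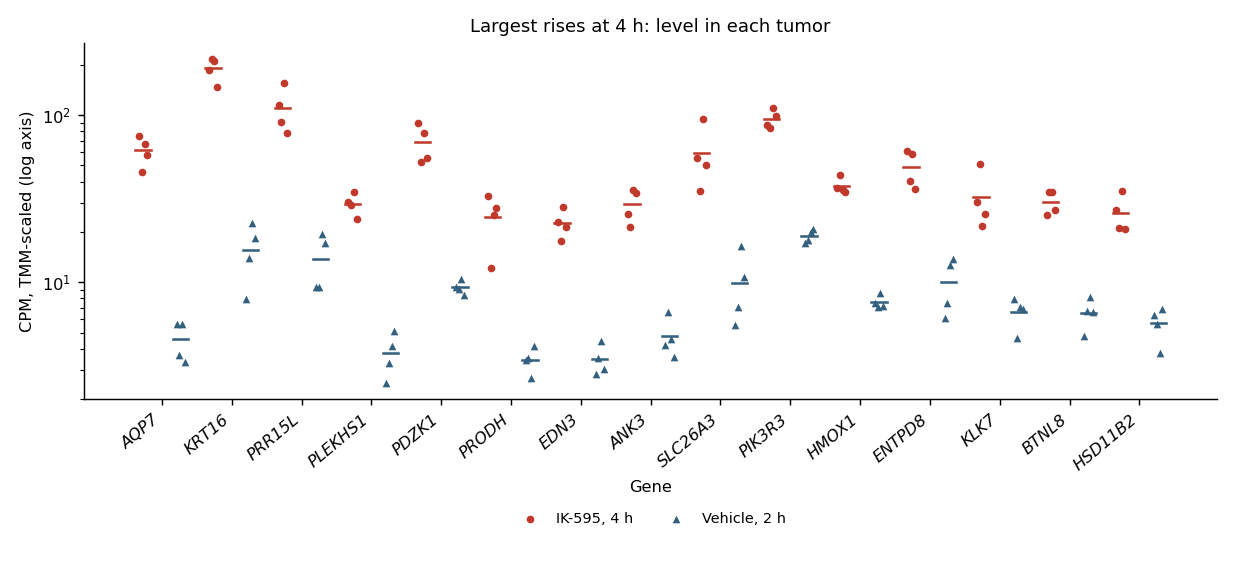
Level of the 15 genes with the largest rises in each tumor, in CPM on a log axis, with 4 h tumors as red circles and vehicle tumors as blue triangles; short lines are means of 4 tumors. The 4 circles lie above the 4 triangles for every gene, which the rule for choosing them required; the gap is widest for AQP7.

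Chosen by the same rule, the 15 largest rises included channels and carriers of absorptive epithelium and barrier proteins. AQP7, a channel for water and glycerol, had 75.5, 45.4, 66.9 and 57.9 CPM at 4 h, against 5.62, 3.68, 5.62 and 3.31 CPM in vehicle tumors (log2FC 3.75 ± 0.32, adjusted p = 3.70e-08). PDZK1, a scaffold under the brush border membrane, had 90.3, 52.4, 78.3 and 55.2 CPM at 4 h, against 9.38, 9.05, 10.5 and 8.44 CPM in vehicle tumors (log2FC 2.89 ± 0.27, adjusted p = 1.29e-07). SLC26A3, the chloride-bicarbonate exchanger of the colon, had 55.2, 35, 95.3 and 50.5 CPM at 4 h, against 5.52, 7.07, 16.4 and 10.8 CPM in vehicle tumors (log2FC 2.57 ± 0.46, adjusted p = 5.58e-04). In these 3 genes 4 h tumor 2 had the lowest level of its group and still lay above all vehicle tumors. ENTPD8, an ectonucleotidase, had 60.7, 40.6, 58.5 and 36.2 CPM at 4 h, against 6.1, 7.5, 12.6 and 13.8 CPM in vehicle tumors (log2FC 2.29 ± 0.38, adjusted p = 2.69e-04). HSD11B2, which inactivates cortisol, had 27.1, 21.1, 35.3 and 20.7 CPM at 4 h, against 6.4, 5.66, 3.78 and 6.96 CPM in vehicle tumors (log2FC 2.19 ± 0.30, adjusted p = 1.56e-05). BTNL8, a butyrophilin-like protein of gut epithelium, had 25.2, 34.6, 34.5 and 27.2 CPM at 4 h, against 4.74, 6.73, 8.16 and 6.62 CPM in vehicle tumors (log2FC 2.21 ± 0.31, adjusted p = 2.81e-05), a value that is less certain because BTNL3 and BTNL8 are alike in sequence and may share reads.

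Other large rises were in keratin, signaling and metabolic genes. KRT16, a keratin of stressed and proliferating epidermis, had 186, 217, 211 and 148 CPM at 4 h, against 7.96, 13.9, 22.6 and 18.3 CPM in vehicle tumors (log2FC 3.60 ± 0.44, adjusted p = 6.02e-06), and reads may be shared with like keratins. KLK7, a serine protease that cleaves adhesions between surface cells, had 30.4, 51.3, 21.6 and 25.5 CPM at 4 h, against 7.91, 4.65, 7.07 and 6.91 CPM in vehicle tumors (log2FC 2.27 ± 0.32, adjusted p = 2.63e-05), with tumor 2 the highest at 4 h. PIK3R3, a regulatory subunit of PI3 kinase, had 86.9, 83.5, 111 and 98.3 CPM at 4 h, against 17.2, 18, 19.9 and 20.7 CPM in vehicle tumors (log2FC 2.32 ± 0.18, adjusted p = 6.62e-09). The PIK3R3 values were tight in both groups, within 83.5 to 111 CPM at 4 h and 17.2 to 20.7 CPM in vehicle tumors. ANK3, a linker of membrane proteins to spectrin, had 25.6, 21.3, 35.8 and 34.3 CPM at 4 h, against 4.2, 6.68, 4.58 and 3.56 CPM in vehicle tumors (log2FC 2.62 ± 0.31, adjusted p = 2.64e-06). PRODH, proline dehydrogenase, had 32.6, 12.1, 25.2 and 27.9 CPM at 4 h, against 3.42, 3.53, 2.69 and 4.15 CPM in vehicle tumors (log2FC 2.83 ± 0.26, adjusted p = 6.59e-08). EDN3, the peptide endothelin 3, had 23, 17.7, 28.3 and 21.5 CPM at 4 h, against 2.83, 3.53, 4.43 and 3.01 CPM in vehicle tumors (log2FC 2.71 ± 0.28, adjusted p = 3.88e-07). PRODH was lowest at 4 h in tumor 2, as was EDN3. The little-studied PRR15L had 115, 90.9, 155 and 78 CPM at 4 h, against 9.33, 9.34, 19.4 and 17.2 CPM in vehicle tumors (log2FC 2.99 ± 0.37, adjusted p = 5.98e-06). PLEKHS1 had 30.1, 29, 34.9 and 24 CPM at 4 h, against 2.49, 3.29, 4.13 and 5.14 CPM in vehicle tumors (log2FC 2.97 ± 0.34, adjusted p = 2.55e-06).

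Of 31 tested gut epithelial and brush border genes 13 rose and none fell (16 under an unadjusted p of 0.05), with a median of 0.58, or 0.74 and again 13 risen without 4 h tumor 2. Limma-voom called 8. RNF186, a ubiquitin ligase of gut epithelium, had 13.2, 5.84, 14.4 and 10.8 CPM at 4 h, against 0.488, 1.26, 2.29 and 1.73 CPM in vehicle tumors (log2FC 2.94 ± 0.40, adjusted p = 1.66e-05). TM4SF20, a membrane protein of the small intestine, had 50.4, 33.7, 58.6 and 63.7 CPM at 4 h, against 11.6, 14.2, 12.8 and 11.3 CPM in vehicle tumors (log2FC 2.05 ± 0.32, adjusted p = 1.22e-04). GUCA2A, encoding guanylin, was low in both groups, with 3.29, 5.93, 1.53 and 1.77 CPM at 4 h, against 0.342, 0.581, 0 and 0.198 CPM in vehicle tumors (log2FC 3.42 ± 0.79, adjusted p = 0.00434, or 4.08 without vehicle tumor 2). BTNL3 rose by 3.13 ± 0.46. The flippase gene ATP10B and the gut gene PHGR1, with log2 fold changes of 4.12 ± 0.96 and 4.07 ± 0.79, were not called by limma-voom (adjusted p = 0.0586 and 0.0651). Of 5 tested aquaporins 3 rose and 1 fell (0 fallen without 4 h tumor 1 or 4 or vehicle tumor 1, 3 or 4; median 1.01), with AQP3, a channel for glycerol and water, at 3.24, 2.39, 4.49 and 2.74 CPM at 4 h, against 0.928, 0.968, 0.747 and 1.38 CPM in vehicle tumors (log2FC 1.67 ± 0.33, adjusted p = 9.20e-04).

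A few mucin genes were called. Of 21 trefoil and mucin genes 4 rose and none fell (8 under an unadjusted p of 0.05, median 0.57; 1 risen at a threshold of 0.01), and log2 fold changes ran between -0.96 and 2.00. MUC12 had 378, 426, 382 and 303 CPM at 4 h, against 70.5, 90.6, 120 and 90.8 CPM in vehicle tumors (log2FC 2.00 ± 0.25, adjusted p = 6.14e-06). MUC13 had 705, 677, 1115 and 686 CPM at 4 h, against 260, 262, 465 and 366 CPM in vehicle tumors (log2FC 1.23 ± 0.33, adjusted p = 0.0134). MUC3A, next to MUC12 on chromosome 7, had 218, 153, 245 and 147 CPM at 4 h, against 82.3, 106, 112 and 111 CPM in vehicle tumors (log2FC 0.89 ± 0.24, adjusted p = 0.0117). These mucins hold repeats of like sequence, so reads may be shared between them. Of 14 keratin genes 2 rose and none fell (median 0.34), KRT16 and KRT80, the second with 114, 94.7, 78.2 and 139 CPM at 4 h, against 27.6, 38.3, 29 and 18.5 CPM in vehicle tumors (log2FC 1.91 ± 0.30, adjusted p = 1.03e-04). At an unadjusted p under 0.05 the keratin count was also 2.

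Genes of cell junctions, mesenchymal state and matrix turnover were also called. Of 25 genes of epithelial adhesion 6 rose and 3 fell (8 risen without 4 h tumor 2, 1 fallen without vehicle tumor 1; median 0.20). CDH1, encoding E-cadherin, had 249, 294, 323 and 279 CPM at 4 h, against 152, 169, 167 and 155 CPM in vehicle tumors (log2FC 0.83 ± 0.19, adjusted p = 0.00421). The tight junction gene MARVELD3 had 23.5, 16.1, 27.2 and 19.5 CPM at 4 h, against 6.93, 5.95, 8.76 and 10.6 CPM in vehicle tumors (log2FC 1.42 ± 0.25, adjusted p = 2.89e-04). OCLN, encoding occludin, rose by 0.80 ± 0.17 and CGN, encoding cingulin, by 0.57 ± 0.10 on the log2 scale. Of 19 mesenchymal state genes 7 fell and 1 rose (median -0.51; 0 risen without 4 h tumor 2 or without any vehicle tumor). SNAI2, the repressor SLUG, had 8.07, 15.1, 7.64 and 6.01 CPM at 4 h, against 34, 43.6, 47.3 and 40.2 CPM in vehicle tumors (log2FC -2.18 ± 0.24, adjusted p = 1.35e-06). VIM, encoding vimentin, had 1541, 2116, 1534 and 1657 CPM at 4 h, against 2855, 3158, 2982 and 2614 CPM in vehicle tumors (log2FC -0.76 ± 0.15, adjusted p = 8.59e-04). The galectin gene LGALS1 had 63.8, 37.2, 64.5 and 45 CPM at 4 h, against 138, 155, 188 and 147 CPM in vehicle tumors (log2FC -1.58 ± 0.23, adjusted p = 3.30e-05). The host fibroblast sum was highest in 4 h tumor 2, where VIM was also the highest of the 4 h group at 2116 CPM, still below every vehicle tumor; the part of host RNA in that value was not tested.

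Of 22 matrix proteases and plasminogen genes 7 fell and 2 rose (median -0.19; 8 fallen and 0 risen without 4 h tumor 2, 1 risen without vehicle tumor 1, 3 or 4). MMP1, interstitial collagenase, had 0.154, 0.383, 0.37 and 0.483 CPM at 4 h, against 7.23, 16.3, 42.8 and 10.9 CPM in vehicle tumors (log2FC -5.78 ± 0.72, adjusted p = 5.67e-06, or -5.01 without vehicle tumor 3). The plasminogen activators PLAT and PLAU and the urokinase receptor PLAUR fell together. PLAT had 208, 172, 272 and 304 CPM at 4 h, against 744, 759, 841 and 590 CPM in vehicle tumors (log2FC -1.62 ± 0.28, adjusted p = 2.51e-04). PLAU had a log2 fold change of -1.22 ± 0.23 and PLAUR -1.02 ± 0.15. MMP1 was at most 0.483 CPM at 4 h, a few counts per tumor, so its fold change is imprecise. Of 18 integrin and laminin genes 7 fell and 2 rose (median -0.55). The collagen receptor ITGA2 had 40, 60.7, 95.2 and 60.6 CPM at 4 h, against 188, 246, 494 and 208 CPM in vehicle tumors (log2FC -2.15 ± 0.36, adjusted p = 2.26e-04). The laminin receptor ITGB4 had 838, 553, 954 and 884 CPM at 4 h, against 1612, 1840, 1771 and 1693 CPM in vehicle tumors (log2FC -1.10 ± 0.16, adjusted p = 4.86e-05). ITGB6, which activates TGF-beta, had 57.6, 83.3, 74.3 and 61.9 CPM at 4 h, against 30, 27.1, 27.7 and 32 CPM in vehicle tumors (log2FC 1.25 ± 0.19, adjusted p = 5.49e-05).

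Inflammatory ligands were called in both directions. Of 20 genes of LIF, interleukin 1 and STAT3 signaling 7 fell and 2 rose (median -0.35; 0 risen without 4 h tumor 1 or vehicle tumor 1, 1 without 4 h tumor 2 or 4 or vehicle tumor 2). LIF, a cytokine secreted by pancreatic cancer and stellate cells, had 46, 57.3, 32.4 and 35.6 CPM at 4 h, against 223, 219, 189 and 178 CPM in vehicle tumors (log2FC -2.24 ± 0.18, adjusted p = 1.12e-08). IL1A had 0.874, 1.63, 1.11 and 0.805 CPM at 4 h, against 9.38, 10.1, 11.3 and 8.54 CPM in vehicle tumors (log2FC -3.17 ± 0.36, adjusted p = 1.28e-06). IL1B had 0.977, 1.44, 0.787 and 0.268 CPM at 4 h, against 6.84, 13.3, 21.4 and 10.7 CPM in vehicle tumors (log2FC -3.96 ± 0.50, adjusted p = 7.05e-06). IL1B was lowest in 4 h tumor 4, at 0.268 CPM, and ranged more in both groups than LIF. Of 9 tested chemokines 4 rose and 1 fell (0 fallen without 4 h tumor 1, 3 or 4 or vehicle tumor 1, 2 or 3; median 0.64). CXCL3, a neutrophil attractant, had 28, 15.2, 17 and 30.8 CPM at 4 h, against 8.55, 9.63, 8.16 and 7.31 CPM in vehicle tumors (log2FC 1.44 ± 0.22, adjusted p = 6.63e-05). The mucosal chemokine CCL28 had 42.5, 46, 60.4 and 38.6 CPM at 4 h, against 10.4, 9.15, 16.7 and 11.7 CPM in vehicle tumors (log2FC 1.97 ± 0.32, adjusted p = 1.50e-04). CXCL2 rose by 1.19 ± 0.25.

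Several other lists held a few clear changes. Of 14 WNT targets and regulators 2 rose and 1 fell (0 fallen without 4 h tumor 3 or vehicle tumor 1, 2 or 4; median 0.16). Both risen genes encode inhibitors of the pathway that it turns on itself. AXIN2 had 4.68, 5.55, 3.98 and 6.6 CPM at 4 h, against 1.07, 1.31, 1.89 and 1.28 CPM in vehicle tumors (log2FC 1.90 ± 0.27, adjusted p = 2.41e-05). RNF43 had 40.4, 26.8, 38.9 and 41 CPM at 4 h, against 18.1, 14.7, 16.7 and 15.5 CPM in vehicle tumors (log2FC 1.18 ± 0.15, adjusted p = 6.95e-06). Of 12 KLF factors 3 fell and none rose (7 under an unadjusted p of 0.05, median -0.08), with KLF6 at 196, 227, 210 and 214 CPM at 4 h, against 467, 487, 513 and 568 CPM in vehicle tumors (log2FC -1.26 ± 0.13, adjusted p = 4.07e-07). KLF16 fell by 1.24 and KLF13 by 0.96. Of 22 YAP and TEAD genes 5 fell and 4 rose (median -0.28; 3 fallen with only the groups compared). YAP1 fell by 0.50, and the kinase gene NUAK2 had 6.22, 4.79, 5.84 and 7.99 CPM at 4 h, against 1.95, 2.81, 2.54 and 2.17 CPM in vehicle tumors (log2FC 1.39 ± 0.23, adjusted p = 1.95e-04).

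Of 20 clock genes 6 rose and 4 fell (median 0.39). NPAS2, a partner of BMAL1, had 34.3, 30, 37.4 and 34.9 CPM at 4 h, against 127, 118, 115 and 112 CPM in vehicle tumors (log2FC -1.79 ± 0.15, adjusted p = 3.14e-08). The output factor DBP had 16, 6.99, 12.5 and 12.4 CPM at 4 h, against 3.47, 4.16, 5.13 and 6.17 CPM in vehicle tumors (log2FC 1.35 ± 0.28, adjusted p = 0.00151). TEF, of the same family, had 37.5, 57.3, 39.5 and 36.7 CPM at 4 h, against 22.4, 20.9, 23.7 and 24.1 CPM in vehicle tumors (log2FC 0.91 ± 0.17, adjusted p = 5.46e-04). Clock messages vary over the day, and the groups were sampled at different times after the dose. At the vehicle tumors' own time, 2 h after IK-595, NPAS2 had 68.5, 94.4, 96 and 89.6 CPM, DBP 19.4, 21.9, 22.4 and 18 CPM and TEF 39.9, 28.1, 36.8 and 28.3 CPM, without overlap with the vehicle tumors. These genes were chosen by their calls at 4 h, and the part of sampling time in the clock list was not tested. Of 30 interferon-stimulated genes 2 rose and 1 fell (4 risen without 4 h tumor 2, 1 without 4 h tumor 1; median -0.04), the fall being OAS1, with 283, 230, 315 and 278 CPM at 4 h, against 470, 415, 450 and 470 CPM in vehicle tumors (log2FC -0.71 ± 0.14, adjusted p = 0.00107). Of 20 heat shock genes 2 fell and 1 rose (0 risen without 4 h tumor 1 or 2 or vehicle tumor 1 or 4; median -0.19). Over all genes tested 6.74% rose and 8.39% fell, so the interferon and heat shock counts were near or below those shares. HSPH1 fell by 1.01 and the factor HSF1 by 0.66. From 2 h to 4 h after IK-595 the log2 fold change of HSF1 was -0.88.

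None of the 13 mitochondrially encoded mRNAs passed by edgeR, DESeq2 or limma-voom, nor was any under an unadjusted p of 0.05 (median 0.24). They took 13.16, 6.22, 9.56 and 9.09% of counts at 4 h, against 8.36, 7.67, 6.13 and 8.77% in vehicle tumors, so the groups overlapped. The lowest share at 4 h was in tumor 2.

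**Figure D4:**
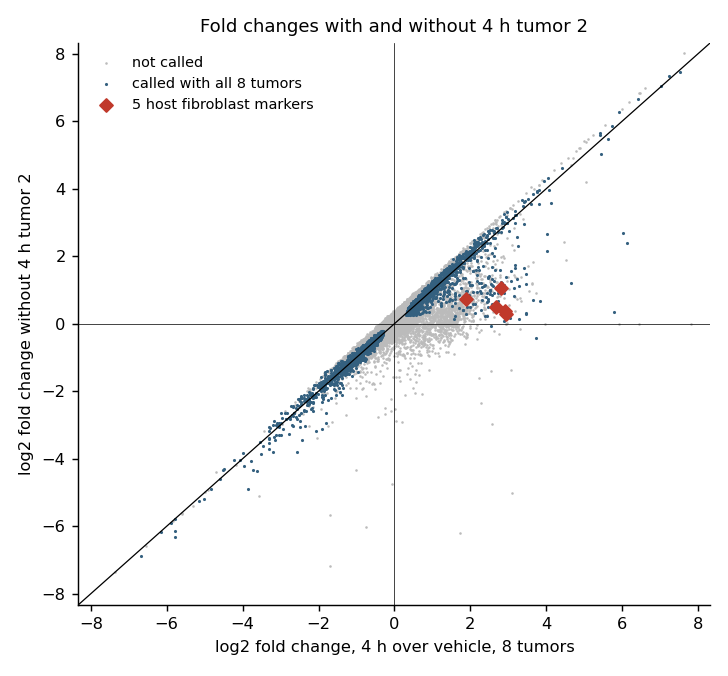
Log2 fold change of each tested gene, 4 h over vehicle, with all 8 tumors (horizontal axis) and without 4 h tumor 2 (vertical axis); blue points were called with all 8 tumors, gray points were not, red diamonds are COL1A1, COL1A2, COL3A1, COL5A1 and RGS5, and the black line marks equal values. Fallen genes keep near the line, while the diamonds drop, COL1A1 to 0.29 without that tumor.

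The calls of host fibroblast genes rested on single tumors. Of 15 tested fibroblast and pericyte markers 4 rose by edgeR (11 under an unadjusted p of 0.05, median 1.88) and 0 rose without 4 h tumor 2 (median 0.44). The count was also 0 without vehicle tumor 1, 3 or 4, 2 without vehicle tumor 2 and 10 without 4 h tumor 3. DESeq2 called 9 and limma-voom 0. COL1A1, a chain of type I collagen, had 677, 16226, 324 and 1135 CPM at 4 h, against 401, 958, 576 and 440 CPM in vehicle tumors (log2FC 2.95 ± 0.94, adjusted p = 0.0391). Its call was lost without 4 h tumor 2 (0.29) and also without vehicle tumor 1 (2.85), 2 (3.33), 3 (2.98) or 4 (2.88). COL3A1 had 419, 4412, 96.4 and 728 CPM at 4 h, against 171, 316, 186 and 131 CPM in vehicle tumors (log2FC 2.82 ± 0.95, adjusted p = 0.0511). It was not called by edgeR with all 8 tumors or by limma-voom, and gave 1.07 without 4 h tumor 2. It was called by DESeq2, with relative log expression scaling (2.86 each) and without 4 h tumor 1 (3.12) or 3 (3.25). Of 8 endothelial markers none was called by edgeR or limma-voom (2 under an unadjusted p of 0.05 and 2 risen by DESeq2, 2 risen by edgeR without 4 h tumor 3), and they summed to 27.6, 136, 13.5 and 34.3 CPM at 4 h, against 22.3, 31.1, 21.4 and 21.9 CPM in vehicle tumors. Of 7 myeloid markers none was called by edgeR, DESeq2 or limma-voom (1 under an unadjusted p of 0.05, 1 risen by edgeR without 4 h tumor 3), with sums of 108 to 221 CPM at 4 h and 106 to 187 CPM in vehicle tumors.

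**Figure D5:**
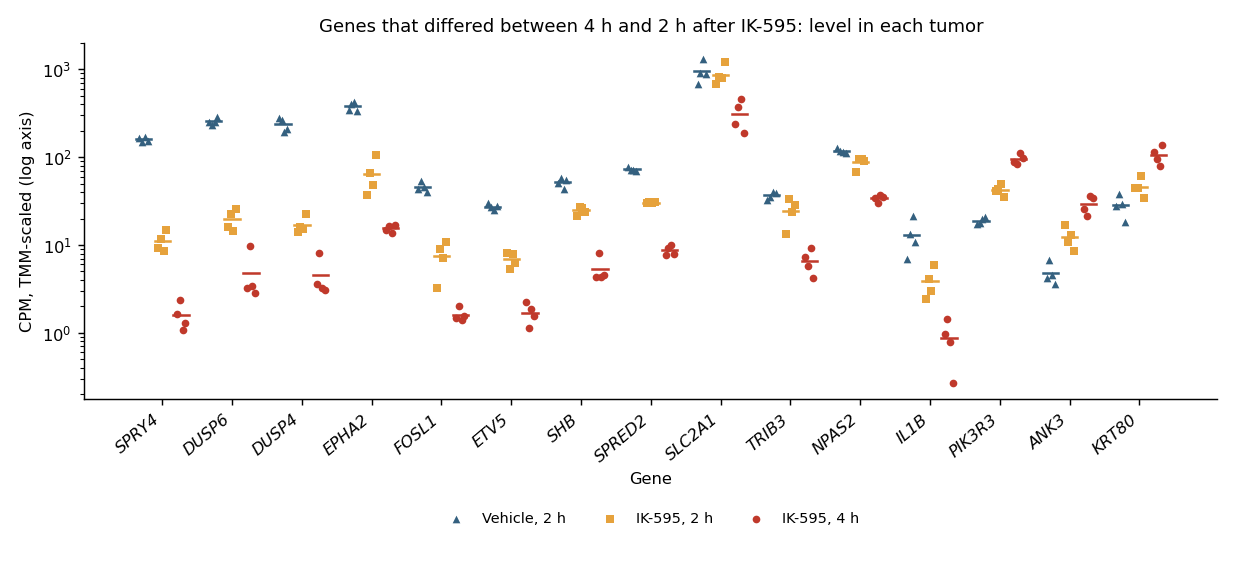
Level of 15 genes in vehicle tumors (blue triangles), 2 h tumors (orange squares) and 4 h tumors (red circles), in CPM on a log axis, 4 tumors a group with lines at their means. For 12 of the genes the circles lie lowest, SPRY4 at 1.07 to 2.39 CPM, and for PIK3R3, ANK3 and KRT80 they lie highest.

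Against tumors collected 2 h after the same dose, a comparison that uses the same 4 h tumors, 1257 of the 18242 genes rose at 4 h (6.89%) and 1642 fell (9%). These counts depended on the 2 h tumors, with 332 risen and 671 fallen without 2 h tumor 4, 510 and 838 without 2 h tumor 2, 505 and 879 without 2 h tumor 3, and 2265 risen without 2 h tumor 1. Leaving out 4 h tumor 4 gave 734 and 605, and leaving out 4 h tumor 2 gave 950 fallen. On every omission 286 risen and 523 fallen genes kept their call, and the genes given here as lower or higher at 4 h are among them.

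Several genes that fell against vehicle were also lower at 4 h than at 2 h. They were chosen by the same 4 h tumors, which favors such a difference in advance. SPRY4 had 1.65, 2.39, 1.07 and 1.29 CPM at 4 h, against 9.31, 11.7, 8.62 and 14.7 CPM at 2 h (log2 fold change -2.85 ± 0.36, adjusted p = 1.14e-04). SHB had 4.32, 8.13, 4.35 and 4.56 CPM at 4 h, against 21.6, 27.1, 26.2 and 23.9 CPM at 2 h (-2.23 ± 0.19, adjusted p = 6.45e-07). KIAA0040 had 4.78, 6.99, 6.02 and 4.45 CPM at 4 h, against 37.9, 27.1, 31.3 and 26 CPM at 2 h (-2.47 ± 0.30, adjusted p = 1.08e-04). In each the highest 4 h tumor was below the lowest 2 h tumor. FOSL1 differed by -2.23 ± 0.49, ERRFI1 by -1.91 ± 0.33, ETV5 by -1.99 ± 0.32 and IL1B by -2.21 ± 0.49 on the log2 scale. MYC, PHLDA1 and SPRY2 did not pass between the times, with log2 fold changes of -0.00 ± 0.26, -0.12 ± 0.22 and -0.01 ± 0.21.

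SLC2A1, TRIB3 and NPAS2 were lower at 4 h as well. The transporter gene SLC2A1 had 239, 369, 458 and 187 CPM at 4 h, against 678, 805, 796 and 1197 CPM at 2 h (-1.47 ± 0.31, adjusted p = 0.00437), and the 2 h tumors overlapped the vehicle range. TRIB3 had 7.35, 5.74, 9.17 and 4.18 CPM at 4 h, against 13.2, 33, 23.7 and 28.8 CPM at 2 h (-1.89 ± 0.29, adjusted p = 5.16e-04), and NPAS2 differed by -1.35 ± 0.15. Of 24 glycolysis genes 12 fell between 2 h and 4 h and 1 rose (median -0.55), with 3 fallen without 2 h tumor 4, 4 without 4 h tumor 4, 5 without 4 h tumor 2 and 8 without 2 h tumor 2 or 3. Of 19 hypoxia response genes 9 fell and 1 rose (median -0.92, 3 to 10 fallen with 1 tumor left out). Of 28 genes of the ATF4 list 11 fell and 2 rose (median -0.17, 5 to 12 fallen with 1 tumor left out). Of 20 clock genes 4 fell and 1 rose between the times (4 to 5 fallen with 1 tumor left out), and of 22 NRF2 genes 3 fell and 4 rose (3 fallen and 0 to 5 risen). Of 20 heat shock genes 1 fell and 2 rose (1 to 2 fallen and 0 to 5 risen). Of 28 genes of cholesterol and fatty acid synthesis 1 fell and 9 rose (median 0.54; 0 to 1 fallen and 1 to 10 risen). Higher at 4 h were PIK3R3, with 86.9, 83.5, 111 and 98.3 CPM at 4 h, against 41, 42.8, 49.5 and 35.4 CPM at 2 h (1.17 ± 0.17, adjusted p = 3.54e-04), ANK3 by 1.25 ± 0.29, KRT80 by 1.21 ± 0.29 and ITGB6 by 0.75 ± 0.19. Of 28 DNA replication genes 19 rose between 2 h and 4 h and none fell (median 1.01), but 4 rose without 2 h tumor 4, 8 without 2 h tumor 3 and 10 without 4 h tumor 4. Of 25 mitosis genes 15 rose (median 1.06), and 2, 3 and 4 rose without those same tumors.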

How the data were processed

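Polyadenylated RNA of 24 tumors, 6 groups of 4 animals, was sequenced, and 8 tumors enter the main comparison. Per the submitters' processing notes, the authors used bcl2fastq 2.17, FastQC 0.12.1 and Salmon 0.14.1 with build GRCh38.p13. The deposited estimated counts per gene are not whole numbers throughout: 59.6% of values above 0 lie within 0.0015 of a whole number, and they were rounded. The TPM values that the authors deposited entered no test. Whether counting used strand, and whether reads of mouse origin were removed, is not given in the sources used here. Of 60230 gene identifiers 60089 were matched to symbols.

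Counts were fitted with edgeR 4.0.16 in R 4.3.3 (robust quasi-likelihood test, TMM scaling, filterByExpr, all 24 tumors in 1 fit, Benjamini-Hochberg adjustment over 18242 genes, threshold 0.05). CPM are TMM-scaled. The code was tested on simulated data. Totals were 10.52 to 20.6 M counts at 4 h and 19.68 to 20.58 M in vehicle tumors, and the median standard error of the log2 fold change was 0.23. DESeq2 1.42.0, limma-voom (limma 3.58.1), RLE scaling, no low-count filter, only the groups compared, the replicate number as a block, a threshold of 0.01 and leaving out each tumor were tried as alternatives. Outside the largest changes, genes were named per list, taking up to 4 called in each direction with the smallest adjusted p, up to 2 of the highest level that did not pass, and single members where a count is small. Some genes that this rule takes in are not reported here. The comparison, the gene lists and the rules were chosen with earlier results of these data known. Replicates are separate animals, per the labels.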

Additional observations from a re-analysis of the deposited data

Results flagged for a closer look

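Of 340 groups of 4 tumors checked for the genes named, 26 (7.65%) held a tumor far from the other 3 by Dixon's criterion on log2 CPM, which chance alone reaches in about 1 in 20 groups. Tumor 2 of the 4 h group accounted for 13 of the 26, and was the highest of its group in 10. It was highest for DUSP6 (9.76 CPM), DUSP4 (8.04), HS3ST1 (8.9), SHB (8.13), SPRED1 (26.4), MAFG (26.8), MAPK3 (145), CDKN1C (3.92), NEU1 (19.1) and TEF (57.3). The same tumor was lowest for BMF (11.3 CPM), KLF16 (12.3) and RNF43 (26.8). Its host fibroblast sum and its depth stood apart as well, and their part in these values was not tested. In 4 h tumor 3 SPRY1 (5.93 CPM) and MUC13 (1115) were high, and CCND1 (46.1) and EPHA1 (4.4) low. In 4 h tumor 4 MNT (21.1 CPM) was low. Among vehicle tumors, tumor 3 was high for IGFN1 (66.4 CPM), MAFG (55.5), BRAF (50.9) and PLAUR (117), tumor 2 high for PHLDA2 (65.2) and RGS5 (6.49), tumor 3 low for UBE2C (36.5) and tumor 1 low for MUC3A (82.3).

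For 41 of the 170 genes named, the change from vehicle differed between 4 h and 2 h, by edgeR and also on leaving out each of the 8 tumors. Over all 18242 genes tested, 286 risen and 523 fallen genes kept such a call. Most genes were named for their change in these same 4 h tumors, which tilts the 41 toward larger changes at 4 h than at 2 h. The values that follow are log2 fold changes, 4 h minus 2 h. Lower at 4 h were, from the largest falls, SPRY4 (-2.85), DUSP6 (-2.09), DUSP4 (-1.97), SPRED2 (-1.80), EPHA2 (-2.05), FOSL1 (-2.23), KIAA0040 (-2.47), CDC42EP2 (-1.61), MYEOV (-1.46) and SHB (-2.23). So were the transcription factors ETV4 (-1.18), ETV5 (-1.99), ETV1 (-1.27), MAFG (-0.76), MAFF (-1.67), MAFK (-1.43), MNT (-0.79), KLF16 (-1.14), NPAS2 (-1.35), HSF1 (-0.88) and ATF4 (-0.65). Among immediate early and signaling genes IER3 (-1.43), IER5 (-0.83), IER2 (-0.70), ERRFI1 (-1.91), IRS2 (-1.50), EFNA5 (-1.10), RASA3 (-1.14), CSNK1E (-1.04) and BCL2L1 (-0.86) were lower. In metabolism and cytokines these were SLC7A11 (-1.41), TRIB3 (-1.89), SLC2A1 (-1.47), SLC16A3 (-0.98), IL1A (-1.52), IL1B (-2.21) and IL18 (-0.75). Higher at 4 h were ANK3 (1.25), PIK3R3 (1.17), KRT80 (1.21) and ITGB6 (0.75).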

How the results depend on the processing

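Of 170 genes named, 160 were called and 154 kept the call on leaving out each tumor; COL1A1, COL1A2, COL5A1, RGS5, UBE2C and UTP20 did not. Neither EPHA4 nor BRAF was called: EPHA4 turned to -0.44 by limma-voom and ranged over -1.17 to 1.24 with 1 tumor left out (-1.17 without 4 h tumor 2), and BRAF ranged over -0.12 to 0.12 (0.00 without 4 h tumor 4, 0.12 without vehicle tumor 3). Against vehicle the risen count of 1230 was 805 with no low-count filter and 631 at a threshold of 0.01, and the fallen count of 1531 was 900 at 0.01. Leaving out 1 tumor gave 959 to 1459 risen and 1115 to 1328 fallen. Against 2 h, risen genes numbered 1257, but 1995 by DESeq2, 230 at 0.01 and 332 to 2265 with 1 tumor left out. The fallen count of 1642 was 800 with no filter, 1083 with only the groups compared, 500 at 0.01 and 605 to 1975 with 1 tumor left out. The cause of these moves was not tested, apart from the stricter threshold. Apart from those 6, SPRED1 and MAFK lost their calls with only the groups compared, PHGR1 and ATP10B by limma-voom, and MUC3A, MUC13 and AKR1C1 at 0.01. With the replicate block 1036 rose and 1422 fell against vehicle, and 960 and 1392 against 2 h. Same-numbered tumors correlated at -0.106 to 0.251, with 2 of 4 pairs over 0.1 and 2 tumors closest to their own number. So few pairs cannot show whether the numbers pair tumors.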

Other observations

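Some called genes belong to lists not described above. Over all genes tested 6.74% rose and 8.39% fell, and the counts of the lineage factor list lay near or below those shares. Of 23 tested lineage factors of pancreas and gut 2 fell and 1 rose (median 0.15; 4 risen with only the groups compared, 3 by DESeq2, 2 by limma-voom or without 4 h tumor 2 and 0 without vehicle tumor 3; 1 fallen with only the groups compared). PDX1, the pancreatic lineage factor, had 7.15, 6.79, 7.04 and 7.51 CPM at 4 h, against 15, 12.7, 11 and 12.8 CPM in vehicle tumors (log2FC -0.85 ± 0.22, adjusted p = 0.00894). Of 10 S100 genes 2 fell and none rose (4 under an unadjusted p of 0.05, median -0.24; 1 risen by DESeq2 and by limma-voom, 1 fallen without 4 h tumor 2 or 3 or vehicle tumor 2, 3 or 4). S100A2, a calcium-binding protein of squamous-like epithelium, had 4.68, 3.45, 4.17 and 5.1 CPM at 4 h, against 9.28, 13, 18.9 and 10.2 CPM in vehicle tumors (log2FC -1.55 ± 0.25, adjusted p = 1.37e-04). PDX1 and S100A2 were lower in every 4 h tumor than in any vehicle tumor. Of 19 tested genes of drug transport and metabolism 2 rose and 1 fell (median 0.27; 4 risen without 4 h tumor 2 or vehicle tumor 3, and 5 by DESeq2). UGT1A10, a glucuronosyltransferase of the gut that shares exons with its neighbors, had 71.2, 78.2, 84 and 65.8 CPM at 4 h, against 28, 22.2, 30.4 and 32.9 CPM in vehicle tumors (log2FC 1.4 ± 0.25, adjusted p = 3.41e-04). ABCC5, an exporter of organic anions, had 37.8, 53.3, 29.7 and 41.3 CPM at 4 h, against 21.5, 23, 17.8 and 22.6 CPM in vehicle tumors (log2FC 0.93 ± 0.19, adjusted p = 0.00157).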
